A study of Mus musculus with 12 samples.

Results

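Endothelial cells line the blood vessels of the lung, and 35 genes by which these cells are recognised were described here across wild-type and Nfkb1-deficient mice in air and after ozone (O3). The genes were taken as a list, and each was represented by the probe set that carried its symbol alone and had the highest mean log2 signal over the 12 arrays. Of the 35 genes, 34 were measured among 17569 genes in all, and Tspan7 was named by no probe set of the annotation used here and was not analysed. All 63 probe sets that named a single endothelial gene passed the filter on low signals, so no gene was lost to it. The filter left a gene out when its signal never exceeded the 20th percentile of an array.

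Total RNA came from the homogenised left lung of individual male mice of 6 to 8 weeks, and each mouse gave 1 Affymetrix Mouse Genome 430 2.0 array. The 4 groups of 3 mice were Nfkb1+/+ mice of the B6129PF2/J stock in filtered air (WT-Air), the same stock after O3 (WT-O3), Nfkb1-/- mice with the Nfkb1tm1Bal allele, from a stock of mixed B6 background, in filtered air (Nfkb1KO-Air) and mice of this genotype exposed to O3 (Nfkb1KO-O3). Exposure was continuous at 0.3 ppm for 48 h, and controls breathed filtered air over the same time. The design asks how lung expression depends on Nfkb1, which encodes the p105 precursor and the p50 subunit of the transcription factor NF-κB, at rest and after the oxidant. The deletion is present in every cell from conception, and WT and Nfkb1-/- mice came as separate stocks of mixed background, so genotype and stock cannot be told apart. No probe set was named for Nfkb1, so its own signal was not used to check the genotypes.

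The alveolar wall holds one of the densest capillary beds of the body, and its endothelium keeps plasma out of the air space while gas passes. Vascular endothelial growth factor (VEGF) acts through the receptors encoded by Kdr and Flt1, angiopoietins act through Tek with Tie1 as its partner, and junction proteins such as VE-cadherin (Cdh5) seal neighbouring cells. In mouse lung, one capillary cell type, the aerocyte, makes the peptide apelin (Apln), and the other, the general capillary cell, carries its receptor (Aplnr). ETS and SOX family transcription factors, among them Erg, Sox7, Sox17 and Sox18, maintain endothelial identity.

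The promoters of 4 receptor tyrosine kinase genes are shown because they differed below in whether they passed the test across all genes. Kdr passed it as lower after O3 in both genotypes, and Tie1 in Nfkb1KO mice, with a value close to the threshold in WT (limma adjusted p = 0.0578). Flt1 fell just outside the threshold in Nfkb1KO mice on its brightest probe set, and Tek passed it in neither genotype. Differences between these genes were not tested, and none of the 4 was called in the comparison of the O3 differences between genotypes. Each window runs from 250 bases before to 50 bases after the RefSeq start on assembly GRCm38.p6, 5′ to 3′ on the strand of the gene. Capitals mark the ETS-type motif AGGAAG or its reverse complement. The shorter GGAA or TTCC outside this motif, also present in the Kdr and Tek windows, was not marked or counted. The windows are chr5:75978406-75978705 (minus strand) for Kdr, chr4:118489800-118490099 (minus strand) for Tie1, chr4:94739039-94739338 (plus strand) for Tek and chr5:147725962-147726261 (minus strand) for Flt1.
Kdr: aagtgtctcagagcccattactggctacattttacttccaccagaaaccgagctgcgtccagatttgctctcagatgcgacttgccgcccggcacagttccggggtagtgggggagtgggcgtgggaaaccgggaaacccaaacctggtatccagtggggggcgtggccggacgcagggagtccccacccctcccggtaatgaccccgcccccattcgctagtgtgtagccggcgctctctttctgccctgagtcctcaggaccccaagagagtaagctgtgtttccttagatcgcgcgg
Tie1: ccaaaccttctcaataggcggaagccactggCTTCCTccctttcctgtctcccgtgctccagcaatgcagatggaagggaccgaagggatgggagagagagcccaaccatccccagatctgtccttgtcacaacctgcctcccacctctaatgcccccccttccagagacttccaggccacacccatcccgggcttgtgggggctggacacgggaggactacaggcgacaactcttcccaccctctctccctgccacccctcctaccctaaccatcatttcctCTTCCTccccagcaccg
Tek: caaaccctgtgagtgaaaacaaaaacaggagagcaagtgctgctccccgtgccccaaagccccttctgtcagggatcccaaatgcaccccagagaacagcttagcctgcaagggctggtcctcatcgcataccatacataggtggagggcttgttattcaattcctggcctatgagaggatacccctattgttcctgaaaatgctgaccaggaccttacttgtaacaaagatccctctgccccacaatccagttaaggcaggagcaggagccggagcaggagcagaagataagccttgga
Flt1: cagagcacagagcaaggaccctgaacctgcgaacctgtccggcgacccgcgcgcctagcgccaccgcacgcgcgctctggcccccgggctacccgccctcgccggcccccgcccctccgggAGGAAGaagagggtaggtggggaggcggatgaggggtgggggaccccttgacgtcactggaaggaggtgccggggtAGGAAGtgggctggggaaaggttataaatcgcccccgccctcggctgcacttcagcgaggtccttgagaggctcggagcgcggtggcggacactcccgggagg
Tie1 and Flt1 each held 2 copies of AGGAAG, and Kdr and Tek held none. RefSeq windows were at hand for 16 of the 35 genes (21 windows), and AGGAAG was in 52.4% of these windows against 35.4% of all 32851. One of the NF-κB consensus forms that the study searched for was in the windows of Kdr and Flt1, that is in 9.52% of the endothelial windows against 5.8% of all. The SOX-type motif ACAAAG was in 14.3% against 18.7%, ACAATG in 9.52% against 12.6%, the KLF-type motif CACCC in 66.7% against 57.5% and the GATA-type motif GATAAG in 9.52% against 7.44%. Both strands were searched, and a match is a description of the sequence, not a bound site.

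The endothelial genes were bright on these arrays. Ranked by mean signal among all genes, the lowest lay at percentile 60.3, their median percentile was 94.9, and 23 of 34 lay above the 90th. Their SD within a group had a median of 0.172 on the log2 scale, against 0.22 over all genes. Lung tissue was apparent from Sftpc, the surfactant protein C gene of alveolar type 2 cells, at log2 signals of 14.28 to 14.58, and from Ager, of alveolar type 1 cells, at 14.35 to 14.58. In a homogenate, fewer endothelial cells and less RNA per endothelial cell cannot be told apart.

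Some arrays stood apart, and they touch the results below. WT-Air replicate 2 was the highest array of its group for 29 of the 34 genes and the highest of all 12 for 22, whereas over all genes it was the highest of its group for 33.9%. Nfkb1KO-O3 replicate 2 was the lowest of its group for 29 genes and the lowest of all 12 for 20, against 37.5% and 10.9% of all genes. The median distance of the 34 genes from their own means was 0.39 and -0.32 in these arrays and between -0.09 and 0.13 in the other 10. The deposited median signal was 180.1 in Nfkb1KO-Air replicate 1 and 99.14 to 121.2 in the others, so the scaling between arrays mattered most for comparisons with Nfkb1KO-Air. Skeletal muscle RNA also varied between lung pieces: the fast myosin gene Myh4 reached log2 12.31 in WT-Air replicate 3 and 7.94 in Nfkb1KO-O3 replicate 2, against 0.67 to 4.92 elsewhere. The part of muscle RNA in the endothelial values was not tested.

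**Figure D1:**
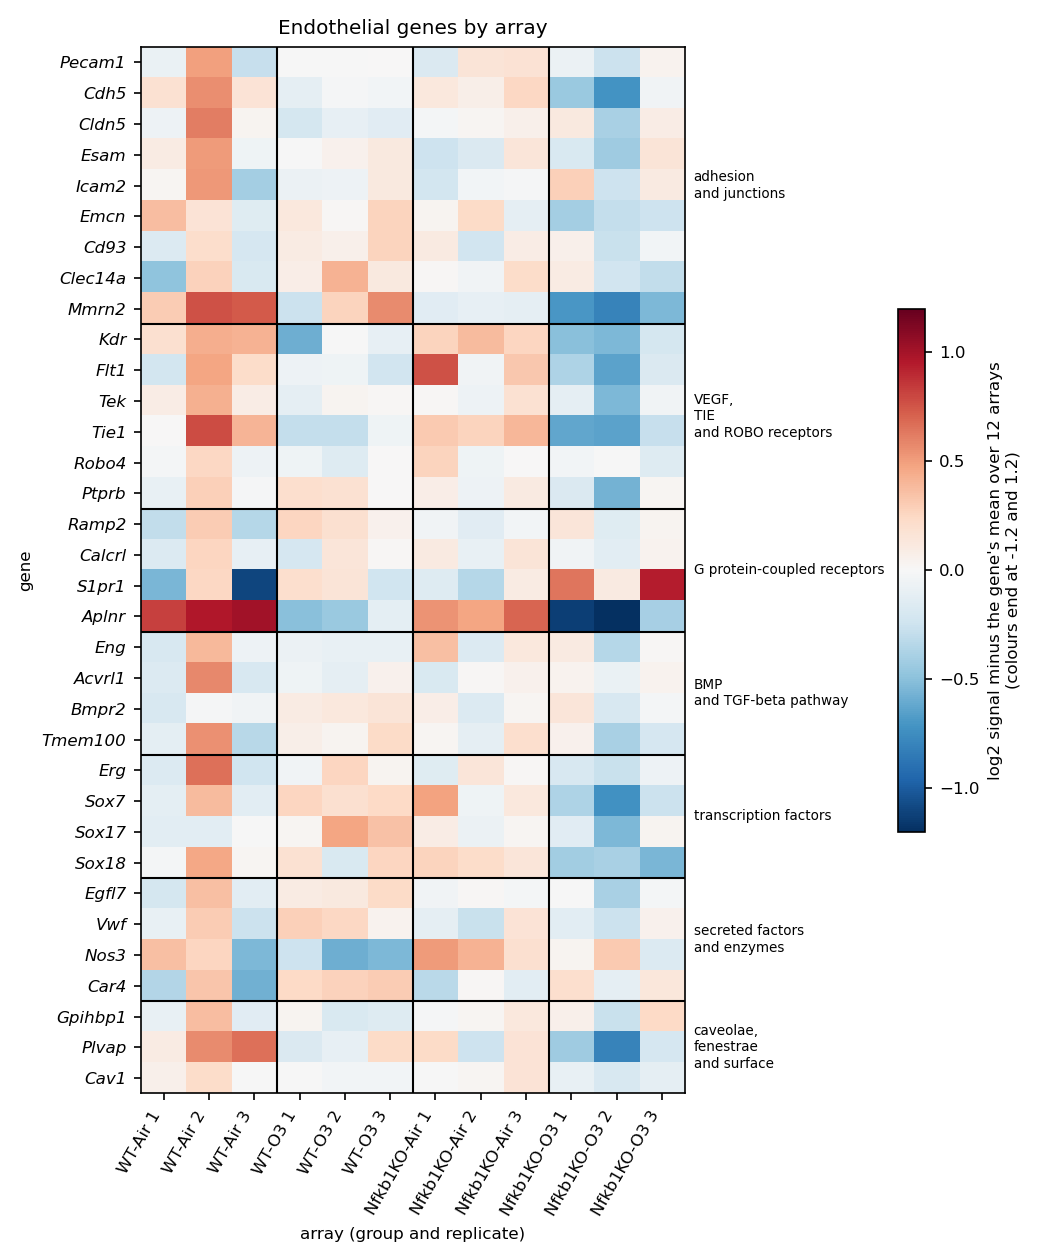
Log2 signal of the 34 endothelial genes (rows, grouped by role) in each of the 12 arrays (columns), as the difference from the gene's own mean over the arrays. WT-Air replicate 2 was the highest of its group for 29 genes and Nfkb1KO-O3 replicate 2 the lowest of its group for 29, and Aplnr showed the widest contrast between air and O3.

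A small set of endothelial receptors was called lower after O3, joined in Nfkb1KO mice by SOX transcription factors and VE-cadherin. No endothelial gene was called higher. In WT mice 2 of 34 genes fell (Aplnr and Kdr), or 5.88% against 2.24% of all genes called lower and 3.16% called higher, and in Nfkb1KO mice 6 of 34 fell (Aplnr, Kdr, Tie1, Sox18, Sox7 and Cdh5), or 17.6% against 2.83% lower and 3.35% higher. Over both directions, 5.4% of all genes were called in WT and 6.18% in Nfkb1KO, and 19.7% and 21.5% of all genes had an unadjusted p under 0.05, beside 10 and 12 of the 34. Calls are at an adjusted p under 0.05 in limma, with Benjamini-Hochberg adjustment over all 17569 genes, and differences are given as log2 values ± SE with 3 mice per group. In WT, 7 of 34 genes were lower and 2 of 34 higher after O3 without overlap of the mice, where 14.1% and 13.5% of all genes were. In Nfkb1KO, 10 of 34 were lower and 1 of 34 higher, where 12.3% and 13.1% of all genes were. The median difference of the 34 genes was -0.06 in WT (all genes -0.03) and -0.19 in Nfkb1KO (all genes -0.01).

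Aplnr, the apelin receptor, had the largest O3 difference of the 34 genes in both genotypes. Its log2 signals were 12.51, 12.65 and 12.70 in WT-Air and 11.19, 11.25 and 11.58 in WT-O3. In Nfkb1KO mice they were 12.23, 12.17 and 12.39 in air and 10.56, 9.76 and 11.29 after O3. Air and O3 mice did not overlap in either genotype, and the Nfkb1KO-O3 mice were spread more widely than any other group. Aplnr fell 2.43-fold in WT (-1.28 ± 0.27, limma adjusted p = 0.0182) and 3.30-fold in Nfkb1KO (-1.72 ± 0.27, limma adjusted p = 0.0043). With each array left out in turn, the Nfkb1KO call was kept in every case, at -1.33 without Nfkb1KO-O3 replicate 2 (limma adjusted p = 0.0048). The WT call was lost without WT-Air replicate 3, WT-O3 replicate 1 or WT-O3 replicate 2 (-1.24 to -1.21, limma adjusted p from 0.0632 to 0.0792). The second, dimmer probe set of Aplnr gave -0.82 in WT and -0.95 in Nfkb1KO. The interaction, the O3 difference in Nfkb1KO minus that in WT, was -0.44 (95% interval -1.27 to 0.39, limma adjusted p = 0.873).

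Apln, the ligand of this receptor, fell with it. Its log2 signals were 9.70, 9.90 and 9.69 in WT-Air and 8.60, 8.97 and 9.29 in WT-O3. They were 9.68, 9.16 and 9.20 in Nfkb1KO-Air and 8.51, 8.27 and 8.83 in Nfkb1KO-O3. The groups did not overlap in either genotype. Apln fell 1.76-fold in WT (-0.81 ± 0.20, limma adjusted p = 0.0364) and 1.75-fold in Nfkb1KO (-0.81 ± 0.20, limma adjusted p = 0.0338). Leaving out any of the 3 WT-Air arrays, WT-O3 replicate 1 or 2 or Nfkb1KO-O3 replicate 1 ended the one in WT (-0.85 to -0.64, limma adjusted p from 0.0566 to 0.13). Leaving out WT-O3 replicate 2, Nfkb1KO-Air replicate 1 or 3 or Nfkb1KO-O3 replicate 1 or 2 ended the one in Nfkb1KO (-0.88 to -0.64, limma adjusted p from 0.0532 to 0.115).

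Kdr, the main signalling receptor for VEGF, also fell in both genotypes. Its log2 signals were 11.54, 11.79 and 11.76 in WT-Air and 10.76, 11.34 and 11.25 in WT-O3. In Nfkb1KO mice they were 11.61, 11.73 and 11.60 in air and 10.84, 10.81 and 11.14 after O3. No O3 mouse reached the lowest air mouse of its genotype. The fall was 1.49-fold in WT (-0.58 ± 0.14, limma adjusted p = 0.0341) and 1.64-fold in Nfkb1KO (-0.72 ± 0.14, limma adjusted p = 0.0119), with an interaction of -0.14 (95% interval -0.57 to 0.29). In WT the call was lost without WT-Air replicate 2 or 3, WT-O3 replicate 1 or 3 or Nfkb1KO-O3 replicate 1 (-0.64 to -0.40, limma adjusted p from 0.0504 to 0.108), and in Nfkb1KO without Nfkb1KO-O3 replicate 1 (-0.67, limma adjusted p = 0.0595). Vegfa, which encodes the ligand, was not called (0.16 ± 0.13 in WT and -0.01 ± 0.13 in Nfkb1KO).

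Tie1, the partner of the angiopoietin receptor, fell in Nfkb1KO mice. Its log2 signals were 10.20, 10.98 and 10.61 in WT-Air and 9.92, 9.91 and 10.15 in WT-O3. They were 10.52, 10.47 and 10.60 in Nfkb1KO-Air and 9.57, 9.56 and 9.92 in Nfkb1KO-O3. The O3 mice lay below the air mice in each genotype, by a narrow gap in WT. The fall in Nfkb1KO was 1.79-fold (-0.84 ± 0.17, limma adjusted p = 0.0126), and WT had -0.60 ± 0.17 without a call (limma adjusted p = 0.0578). Without Nfkb1KO-O3 replicate 1 the Nfkb1KO call was lost (-0.79, limma adjusted p = 0.0639). The interaction was -0.24 (95% interval -0.75 to 0.28), so the difference between genotypes was not shown.

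The other receptors of this kind were not called. Flt1, a VEGF receptor that also exists as a soluble trap, had -0.74 ± 0.20 in Nfkb1KO (limma adjusted p = 0.0503) and -0.27 ± 0.20 in WT. Its 3 other probe sets gave 0.04 to 0.68 in Nfkb1KO, so the value depends on the probe set. Tek, the angiopoietin receptor, had -0.22 in WT and -0.27 in Nfkb1KO, and its ligand genes Angpt1 and Angpt2 were not called either. Robo4, a guidance receptor of endothelium, had -0.12 and -0.14, and Ptprb, the phosphatase that restrains Tek, had 0.07 and -0.28. All 6 receptors of the group were below the median of all genes in Nfkb1KO after O3, also on median-centred and on unnormalised arrays. Among the G protein-coupled receptors, Calcrl and its partner Ramp2, which form the adrenomedullin receptor, and S1pr1, the sphingosine 1-phosphate receptor, were not called. S1pr1 had the highest positive O3 differences of the 34 genes (0.51 ± 0.29 in WT and 0.70 ± 0.29 in Nfkb1KO, limma adjusted p = 0.369 and 0.183).

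Adm, which encodes the ligand adrenomedullin, rose in both genotypes. Its log2 signals were 7.66, 7.38 and 6.75 in WT-Air and 8.37, 8.29 and 8.07 in WT-O3. They were 8.04, 7.29 and 7.47 in Nfkb1KO-Air and 8.66, 8.87 and 8.81 in Nfkb1KO-O3. All O3 mice were above all air mice of their genotype. The rise was 1.97-fold in WT (0.98 ± 0.25, limma adjusted p = 0.0397) and 2.27-fold in Nfkb1KO (1.18 ± 0.25, limma adjusted p = 0.0165). The WT call was lost when WT-Air replicate 2 or 3, any WT-O3 array, Nfkb1KO-Air replicate 3 or Nfkb1KO-O3 replicate 1 or 3 was left out (0.72 to 1.07, limma adjusted p from 0.0529 to 0.139). The Nfkb1KO call was lost without Nfkb1KO-Air replicate 3 or any Nfkb1KO-O3 array (1.11 to 1.24, limma adjusted p from 0.0502 to 0.0541). Calcrl itself differed by -0.01 in WT and -0.10 in Nfkb1KO on its brightest probe set, whereas a second one gave 0.84 and 0.54.

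Of 9 adhesion and junction genes, 1 fell in Nfkb1KO and none was called in WT, with 8 and 6 below 0. Of all genes, 2.83% were called lower in Nfkb1KO and 5.4% were called in WT. Cdh5, which encodes VE-cadherin, had log2 signals of 12.61, 12.98 and 12.58 in WT-Air and 12.31, 12.41 and 12.39 in WT-O3. They were 12.55, 12.49 and 12.67 in Nfkb1KO-Air and 11.98, 11.70 and 12.38 in Nfkb1KO-O3. One Nfkb1KO-O3 mouse lay close to the air mice, and the other two were lower. Cdh5 fell 1.46-fold in Nfkb1KO (-0.55 ± 0.15, limma adjusted p = 0.0465) and had -0.35 ± 0.15 in WT (limma adjusted p = 0.203). The call held without WT-Air replicate 2 or Nfkb1KO-O3 replicate 3 and was lost without each of the other 10 arrays (-0.59 to -0.39, limma adjusted p from 0.0507 to 0.145), and the dimmer second probe set gave -0.08. Pecam1, the adhesion molecule most used to mark endothelium, had 11.93, 12.51 and 11.74 in WT-Air and 12.01, 12.01 and 12.02 in WT-O3. It had 11.84, 12.17 and 12.19 in Nfkb1KO-Air and 11.94, 11.75 and 12.06 in Nfkb1KO-O3. These groups overlapped, with O3 differences of -0.05 (95% interval -0.40 to 0.31) in WT and -0.15 (-0.50 to 0.21) in Nfkb1KO. The 7 other genes of this group, Cldn5, Esam, Icam2, Emcn, Cd93, Clec14a and Mmrn2, ranged from -0.41 to 0.34 in WT and from -0.57 to 0.13 in Nfkb1KO, with none called by limma. The lowest in both was Mmrn2, which did not overlap between air and O3 in Nfkb1KO (limma adjusted p = 0.0864).

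Of the transcription factors, 2 of the 3 SOX genes fell in Nfkb1KO mice, where 2.83% of all genes were called lower. Sox18, needed for vessel and lymphatic development, had log2 signals of 11.48, 11.96 and 11.52 in WT-Air and 11.68, 11.32 and 11.76 in WT-O3. It had 11.77, 11.72 and 11.65 in Nfkb1KO-Air and 11.09, 11.11 and 10.96 in Nfkb1KO-O3. The Nfkb1KO-O3 mice lay below the mice of all other groups, which overlapped. The fall was 1.58-fold (-0.66 ± 0.14, limma adjusted p = 0.0138), and it was called without Nfkb1KO-O3 replicate 2 (-0.69, limma adjusted p = 0.031). It was lost without Nfkb1KO-Air replicate 1 or Nfkb1KO-O3 replicate 1 (-0.64 and -0.68, limma adjusted p = 0.0539 and 0.0521). In WT the difference was -0.07 ± 0.14 (limma adjusted p = 0.84).

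Sox7, a related factor, had 10.57, 11.07 and 10.56 in WT-Air and 10.95, 10.88 and 10.93 in WT-O3. It had 11.17, 10.64 and 10.82 in Nfkb1KO-Air and 10.32, 9.96 and 10.43 in Nfkb1KO-O3. The 3 Nfkb1KO-O3 mice were again below all others. Sox7 fell 1.56-fold (-0.64 ± 0.17, limma adjusted p = 0.0417), and WT had 0.18 ± 0.17. The Nfkb1KO call was lost without any of the WT-O3 arrays, Nfkb1KO-Air replicate 1 or 3 or Nfkb1KO-O3 replicate 1 or 2 (-0.68 to -0.49, limma adjusted p from 0.0593 to 0.142). Sox17, a factor of arterial endothelium, had 0.37 ± 0.14 in WT (limma adjusted p = 0.17) and -0.23 ± 0.14 in Nfkb1KO. Erg, the ETS factor, was called in neither genotype and had -0.18 in Nfkb1KO.

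**Figure D2:**
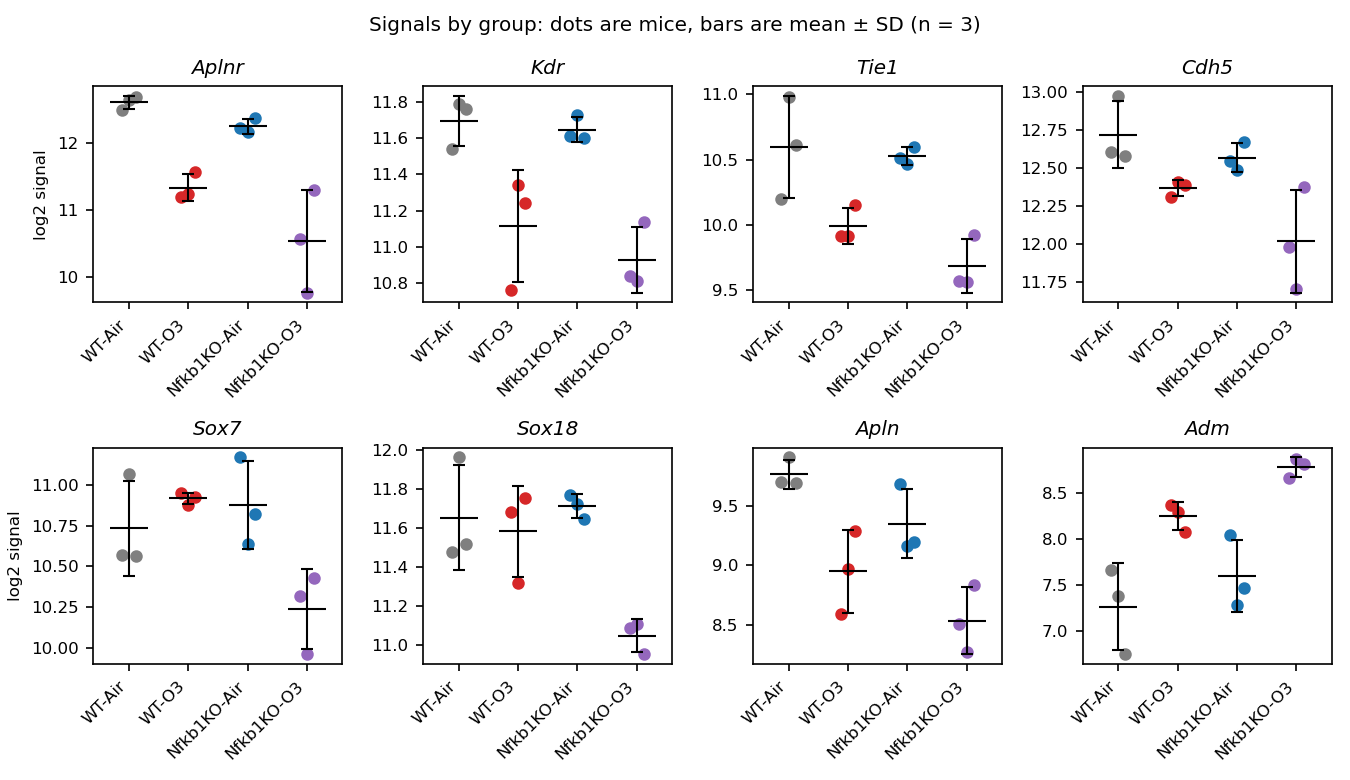
Log2 signals by group for the 6 endothelial genes that fell after O3 in at least 1 genotype and for the ligand genes Apln and Adm; dots are mice and bars the mean ± SD of 3, on axes that do not start at 0. Aplnr and Kdr were lower after O3 in both genotypes, Sox7 and Sox18 were lowest in the Nfkb1KO-O3 mice, and Adm was higher after O3.

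The genes of the remaining roles were not called. The bone morphogenetic protein (BMP) and transforming growth factor-β receptors and their modulators, Eng, Acvrl1, Bmpr2 and Tmem100, ranged from -0.13 to 0.21 in WT and from -0.22 to 0.04 in Nfkb1KO. Their dimmer probe sets ran from 0.05 to 0.34 in WT. In Nfkb1KO these ran from -0.42 (Tmem100) to 0.16 (Bmpr2), with -0.36 for Acvrl1. Of the secreted factors and enzymes, Egfl7 and Vwf (von Willebrand factor) stayed between -0.12 and 0.20. The dimmer probe sets of Egfl7 gave up to 0.30 in WT and from -0.34 to 0.01 in Nfkb1KO. Nos3, the endothelial nitric oxide synthase, had -0.48 ± 0.22 in WT and -0.31 ± 0.22 in Nfkb1KO, and Car4, the carbonic anhydrase of aerocytes, had 0.47 ± 0.18 and 0.23 ± 0.18. The second probe set of Car4 gave 0.15 and -0.10. Of the genes of caveolae, fenestrae and the luminal surface, Plvap, which forms the diaphragms of fenestrae, had -0.46 and -0.53, Cav1, the caveolae protein, had -0.12 and -0.19, and Gpihbp1, the anchor of lipoprotein lipase on capillaries, had -0.15 and -0.03.

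**Figure D3:**
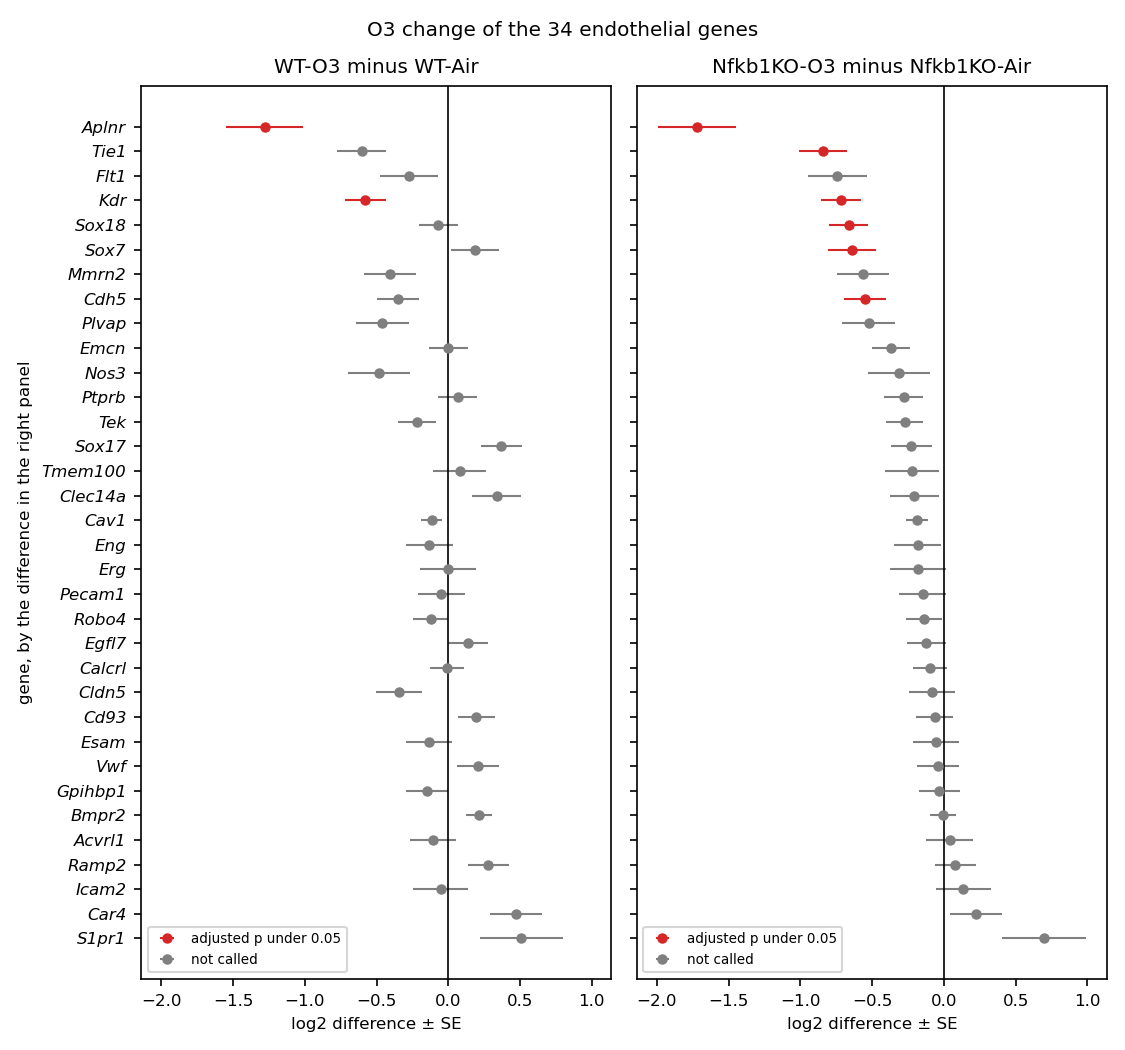
O3 difference of each of the 34 genes in WT (left) and Nfkb1KO mice (right), as log2 difference ± SE from limma, with calls at an adjusted p under 0.05 in red. In WT 2 genes were called and in Nfkb1KO 6, all of them lower.

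The general shift of the 34 genes depended on a few arrays and on the scaling. In WT, 21 of 34 had a negative O3 difference, but without WT-Air replicate 2 only 12 did, and the median turned from -0.06 to 0.10. In that setting Car4 and Ramp2 were called higher, beside Aplnr lower, and Kdr was not called. In Nfkb1KO, 29 of 34 were negative with a median of -0.19, and without Nfkb1KO-O3 replicate 2 these were 22 and -0.12. With the arrays only centred on their medians, the median of the 34 genes in Nfkb1KO was 0.26 and that of all genes 0.25, and on the deposited scale they were -0.11 and -0.12. On both of these scales 16 of 34 genes lay below the median of all genes, against 28 after quantile normalisation. On the median-centred scale, where none of them was called, the 6 called genes still lay from -1.51 to -0.32 from the median of all genes.

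Between genotypes, no endothelial gene was called. In air, 0 of 34 were called by limma, where 0.342% of all genes were (0.256% higher and 0.0854% lower). At an unadjusted p under 0.05 there was 1 of 34, against 11.3% of all genes. Without overlap of the mice, 2 of 34 genes were lower in Nfkb1KO-Air and 0 of 34 higher, where 7.26% and 6.63% of all genes were. The median difference of Nfkb1KO-Air from WT-Air was -0.01, as was that of all genes, and it was 0.13 without WT-Air replicate 2. It was -0.31 on median-centred arrays (all genes -0.20) and -0.07 on the deposited scale (all genes 0.04), and 28 of 34 genes lay below the median of all genes on each of these scales, against 17 after quantile normalisation. After O3, 0 of 34 were called by limma, against 0.723% of all genes (0.552% higher and 0.171% lower). At an unadjusted p under 0.05 there were 10 of 34, against 9.43% of all genes. The median was then -0.21 against 0.00 for all genes, and 26 of 34 genes were lower in Nfkb1KO than in WT mice. Without overlap of the mice, 9 of 34 were lower and 1 of 34 higher, where 9.76% and 9.31% of all genes were. Among the 9 was Emcn (-0.45 ± 0.13, limma adjusted p = 0.212, and -0.08 in air). Emcn lies 1.65 Mb from Nfkb1 on chromosome 3, and the part of this position was not tested. Without Nfkb1KO-O3 replicate 2 the median of the 34 genes was -0.13, and 26 genes were again lower. The scale left the direction as it was, with medians of -0.12 on median-centred arrays (all genes 0.05) and -0.19 on the deposited scale (all genes -0.01). Markers of some other cells lay on the other side of 0 in the same comparison. All 11 leukocyte markers were higher in Nfkb1KO mice (median 0.29), as were all 7 platelet markers (median 0.41, 5 of them without overlap). All 10 skeletal muscle markers (median 2.19) and all 9 cardiac markers (median 0.65) were higher too, but only 1 and 0 of them without overlap. The cardiac median was 12.4, 13.88 and 10.04 in the Nfkb1KO-O3 mice and 12.03, 10.09 and 12.30 in the WT-O3 mice. Alveolar markers did not lie there: 7 of 8 type 1 markers (median -0.13) and 5 of 7 type 2 markers (median -0.03) were lower. Of 12 pericyte markers, 6 were lower and 6 higher (median -0.01). Among all these markers, only the platelet gene Gp1bb was called by limma. In air, where the endothelial median was -0.01, marker lists already differed between genotypes. All 7 platelet markers (median 0.74, 5 without overlap) and 9 of 11 leukocyte markers (median 0.26) were higher in Nfkb1KO-Air. All 9 cardiac markers were higher (median 0.30), and all 10 skeletal muscle markers (median -2.66) and all 8 type 1 markers (median -0.17) were lower.

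Mmrn2, an extracellular ligand of the endothelial lectins Clec14a and Cd93, came closest to a genotype difference. Its log2 signals were 10.61, 11.06 and 11.04 in WT-Air and 10.16, 10.20 and 10.19 in Nfkb1KO-Air. After O3 they were 10.04, 10.57 and 10.87 in WT and 9.60, 9.50 and 9.76 in Nfkb1KO. Nfkb1KO mice lay below WT mice in both exposures without overlap. The difference was -0.71 ± 0.18 in air (limma adjusted p = 0.143) and -0.87 ± 0.18 after O3 (limma adjusted p = 0.0502), and its 4 probe sets were all negative in both. With each array left out in turn, the difference after O3 lay between -1.10 and -0.69 (limma adjusted p from 0.00628 to 0.2). The lowest difference in size was without WT-O3 replicate 3 (limma adjusted p = 0.173) and the highest p without WT-O3 replicate 2, and it passed without WT-Air replicate 1 (-0.87, limma adjusted p = 0.0366) or WT-O3 replicate 1 (-1.10, limma adjusted p = 0.00628).

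The 3 SOX genes were near each other after O3, with Nfkb1KO-O3 minus WT-O3 at -0.68 ± 0.17 for Sox7, -0.54 ± 0.14 for Sox18 and -0.50 ± 0.14 for Sox17 (limma adjusted p = 0.11, 0.128 and 0.199). In air the same genes had 0.14, 0.06 and 0.10. The interaction asks whether O3 acted differently in the 2 genotypes, and 0 of 34 genes were called in it by limma, where 0.0342% of all genes were. At an unadjusted p under 0.05 there were 4 of 34, against 6.06% of all genes. Sox7 had an interaction of -0.82 (95% interval -1.33 to -0.31, limma adjusted p = 0.645), Sox18 of -0.59 (-1.01 to -0.18, limma adjusted p = 0.742) and Sox17 of -0.60 (-1.04 to -0.16, limma adjusted p = 0.781). None passed the adjustment over all genes. The interaction shares its arrays with the comparisons above, and it adds no separate measurement to them.

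**Figure D4:**
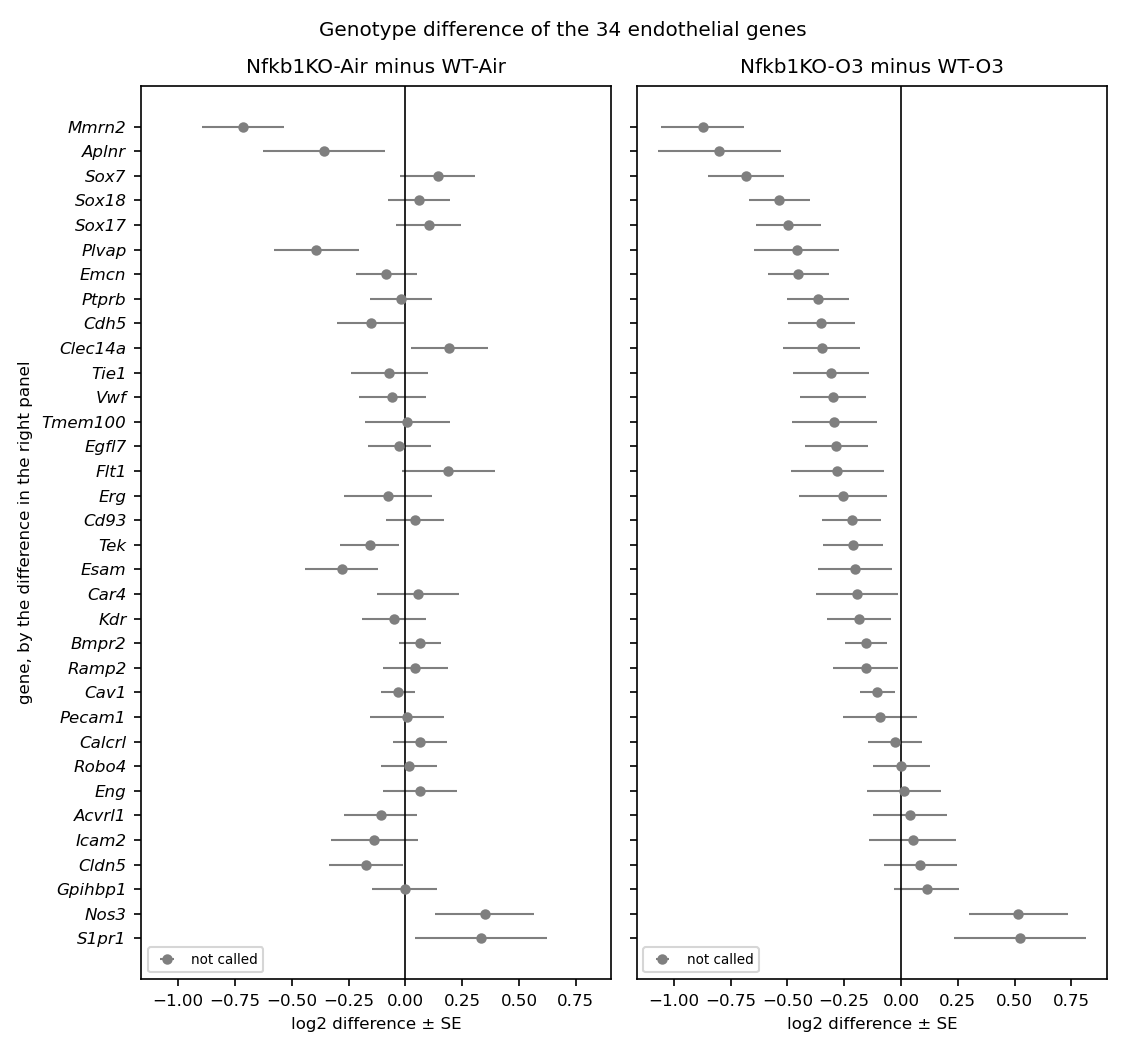
Genotype difference of each of the 34 genes in air (left) and after O3 (right), as log2 difference ± SE from limma. No gene was called in either comparison, and Mmrn2 had the lowest value in both.

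The partners of these genes were counted from lists of their ligands, receptors and regulators. Of all genes, 3.16% were called higher and 2.24% lower after O3 in WT, and 3.35% and 2.83% in Nfkb1KO. Of 16 angiogenic ligands, 1 rose and 1 fell in WT (Adm and Apln), and 1 rose and 2 fell in Nfkb1KO, where the second was Pdgfb, the pericyte-recruiting growth factor (-0.33 ± 0.09, limma adjusted p = 0.0438). Of 14 other receptors and Notch pathway genes, Tgfbr2, a transforming growth factor-β receptor, rose in WT (0.44 ± 0.07, limma adjusted p = 0.0057). Kit, a receptor of general capillary cells and mast cells, fell in Nfkb1KO (-0.77 ± 0.15, limma adjusted p = 0.012). Without a call, the mean log2 signal of Tgfbr2 went from 12.74 to 12.98 in Nfkb1KO and that of Kit from 11.91 to 11.40 in WT. Of 8 SMAD and ID genes downstream of BMP, only Id1 was called, higher in WT (0.80 ± 0.20, limma adjusted p = 0.0397). In Nfkb1KO, Id1 had 0.71 ± 0.20 without a call (limma adjusted p = 0.058), with an interaction of -0.09. With each of the 12 arrays left out in turn, the call of Tgfbr2 was never lost. That of Kit was lost without Nfkb1KO-Air replicate 1 or Nfkb1KO-O3 replicate 1 (-0.74 to -0.70, limma adjusted p from 0.0532 to 0.0586). Pdgfb held only without WT-Air replicate 1 or 3, and was otherwise at -0.38 to -0.29 (limma adjusted p from 0.0503 to 0.134). Id1 held without WT-Air replicate 2, Nfkb1KO-Air replicate 1 or Nfkb1KO-O3 replicate 2 or 3, and was otherwise at 0.67 to 0.88 (limma adjusted p from 0.0513 to 0.144).

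Among 16 other endothelial transcription factors, 1 rose and 2 fell in WT and 4 fell in Nfkb1KO. Those that fell were 12.5% of the list in WT and 25% in Nfkb1KO. Over all genes, 3.16% rose and 2.24% fell in WT, and 3.35% rose and 2.83% fell in Nfkb1KO. Foxo1, a factor that restrains endothelial growth, fell in WT (-0.44 ± 0.11, limma adjusted p = 0.0422) and in Nfkb1KO (-0.59 ± 0.11, limma adjusted p = 0.0108), and Mef2c fell in both (-0.67 ± 0.14 in each, limma adjusted p = 0.02 and 0.0187). Klf4, a factor induced by blood flow, rose in WT (0.84 ± 0.21, limma adjusted p = 0.0374). In Nfkb1KO its mean log2 signal was 12.40 in air and 12.93 after O3, without a call. Nr2f2, which specifies veins, fell in Nfkb1KO (-0.65 ± 0.10, limma adjusted p = 0.00421), as did Tbx3. In WT the mean log2 signal of Nr2f2 was 11.62 in air and 11.30 after O3, without a call. Tbx3 was also the 1 factor of this list that was lower in Nfkb1KO than in WT mice after O3 (-0.53 ± 0.10, limma adjusted p = 0.0264). In that comparison 0.171% of all genes were called lower. Of 16 junction and barrier partners, 2 fell in WT (Cavin1, a coat protein of caveolae, and Jam2, a junction protein), and 2 fell and 1 rose in Nfkb1KO (Cavin1 and Cavin2, and Ptpn11). Cgnl1, a junction adaptor, was lower in Nfkb1KO-Air than in WT-Air (-0.50 ± 0.09, limma adjusted p = 0.0362), where 0.0854% of all genes were. The call of Nr2f2 held whichever array was left out, and that of Foxo1 in Nfkb1KO was lost only without Nfkb1KO-O3 replicate 1 (-0.57, limma adjusted p = 0.0521). Ptpn11 was lost without Nfkb1KO-Air replicate 1 or Nfkb1KO-O3 replicate 1 or 3 (0.34 to 0.36, limma adjusted p from 0.0522 to 0.0853). Mef2c was lost in Nfkb1KO without Nfkb1KO-Air replicate 3 or Nfkb1KO-O3 replicate 1 or 2 (-0.65 to -0.57, limma adjusted p from 0.0635 to 0.0742), and in WT without WT-Air replicate 1 or 3 or any WT-O3 array (-0.74 to -0.58, limma adjusted p from 0.0515 to 0.0789). Each other call named here was lost with 4 to 9 of the 12 arrays left out in turn, among them 1 or more arrays of both groups compared. The limma adjusted p then reached 0.189 for Foxo1 in WT, 0.138 for Klf4, 0.0687 and 0.114 for the O3 and genotype differences of Tbx3, 0.132 and 0.0874 for Cavin1 in WT and Nfkb1KO, 0.12 for Cavin2, 0.0928 for Jam2 and 0.107 for Cgnl1.

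By vessel type, the called genes were few in number. After O3, 2.24% of all genes were called lower in WT and 2.83% in Nfkb1KO. Between genotypes after O3, 0.171% of all genes were called lower. Of 9 measured aerocyte markers, Apln and Kdr fell in both genotypes. Of 10 general capillary markers, Aplnr fell in both and Kit in Nfkb1KO. Of 10 arterial markers, Gja4, a connexin, fell in Nfkb1KO (-0.48 ± 0.12, limma adjusted p = 0.039) and was lower in Nfkb1KO than in WT mice after O3 (-0.62 ± 0.12, limma adjusted p = 0.0355). Of 8 venous markers only Nr2f2 was called, of 7 measured lymphatic markers only Thy1, and of 12 pericyte markers only Abcc9, a potassium channel subunit. Of the 7 lymphatic markers, 3 had positive O3 differences in each genotype, and the cell source of Thy1 in the homogenate was not tested. Thy1 and Abcc9 fell in both genotypes, at -1.0 ± 0.15 and -0.90 ± 0.20 in WT (limma adjusted p = 0.00378 and 0.0226) and -0.58 ± 0.15 and -0.76 ± 0.20 in Nfkb1KO (limma adjusted p = 0.0424 and 0.0432). Thy1 in WT was called whichever array was left out, and Abcc9 in WT was lost without WT-Air replicate 1 or 3 or WT-O3 replicate 2 (-0.86 to -0.71, limma adjusted p from 0.0744 to 0.104). In Nfkb1KO, Thy1 was lost with 8 of the 12 arrays left out in turn (limma adjusted p up to 0.157), Abcc9 with 9 (up to 0.144) and Gja4 with 6 (up to 0.119), as was its genotype difference with 7 (up to 0.157).

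Markers of other cells were counted beside them. Of all genes, 5.4% were called after O3 in WT and 6.18% in Nfkb1KO, and 0.723% between genotypes after O3. At an unadjusted p under 0.05 there were 19.7% of all genes in WT and 21.5% in Nfkb1KO. Of 8 alveolar type 1 markers, Hopx rose in both genotypes (0.32 and 0.35), and of 7 measured alveolar type 2 markers none was called by limma after O3, with 4 in WT and 3 in Nfkb1KO at an unadjusted p under 0.05. Of 11 measured leukocyte markers, only Cd68 of macrophages was called, higher in Nfkb1KO (0.67 ± 0.18, limma adjusted p = 0.0447). Their summed linear signal was 18240 to 28090 in WT-Air, 17960 to 20090 in WT-O3, 25510 to 27830 in Nfkb1KO-Air and 17760 to 26340 in Nfkb1KO-O3. Of 7 platelet markers, Ppbp fell in Nfkb1KO (-1.23) and Gp1bb was higher in Nfkb1KO than in WT mice after O3 (1.18), and of 3 measured erythroid markers, Slc4a1 fell in WT (-2.39) and was higher in Nfkb1KO mice after O3 (2.33). With each array left out in turn, the calls of Hopx in Nfkb1KO, Gp1bb and Slc4a1 in WT held, that of Hopx in WT was lost with 4 of 12, Ppbp with 8, Cd68 with 9 and the genotype difference of Slc4a1 with 7. None of 10 skeletal muscle and 9 cardiac muscle markers was called by limma, with 5 and 0 in WT and 0 and 0 in Nfkb1KO at an unadjusted p under 0.05. The summed signal of the skeletal markers ran from 1278 to 40450 in WT-Air, 492 to 1071 in WT-O3, 1381 to 2088 in Nfkb1KO-Air and 534.9 to 9898 in Nfkb1KO-O3. The summed signal of the 34 endothelial genes was 165200 to 221900, 173900 to 180400, 167300 to 187500 and 137500 to 170100 in the same order, with the highest in WT-Air replicate 2 and the lowest in Nfkb1KO-O3 replicate 2. The part of these other cells in the endothelial values was not tested.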

How the data were processed

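One-colour Affymetrix Mouse Genome 430 2.0 arrays carried the lung RNA of 12 mice, 1 per array. For each probe set the authors deposited a linear signal intensity, obtained with MAS5 and scaled to a 2% trimmed mean of 500 per array. The versions of Affymetrix Expression Console and MAS5 were not given in the sources used here. Detection calls were not used here, and precision is limited by the number of arrays.

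After 64 control probe sets were removed, signals were floored at 1, put on the log2 scale and quantile normalised. Of 45101 probe sets, 34958 carried 1 gene symbol in the annotation, 932 several and 9211 none. A probe set was kept where any array had it above its own 20th percentile, and the probe set with the highest mean stood for a gene with several (17 of the 34 endothelial genes). Symbols were updated by gene number through RefSeq GRCm38.p6, and 2 probe sets naming Ramp2 together with another gene were left out.

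Groups came from the labels. All 12 arrays entered 1 model of group means in limma 3.58.1 (R 4.3.3), with a mean-dependent trend and 12.6 degrees of freedom in all, and p-values were adjusted by Benjamini-Hochberg over 17569 genes for each of 5 comparisons. With 3 mice per group, a two-sided exact test of 1 gene cannot go below p = 0.1. The procedure was tested on simulated data. Values of every array were given for called endothelial genes and for Pecam1, Cdh5 and Kdr, and the rest by range. From 18 further lists, called genes were named. Flt1, Mmrn2 and the array values of Apln and Adm were added after their values were seen. The endothelial genes and the lists were chosen with earlier results of these data known. Replicate numbers shared between groups did not pair the mice. Alternatives covered the normalisation, filter, floor, probe set choice, spread, block, test and each array left out. Leaving out WT-Air and Nfkb1KO-O3 replicates 2 together was added after seeing the data.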

Additional observations from a re-analysis of the deposited data

How the results depend on the processing

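Of the 34 endothelial genes, 0 were called for genotype in air under every alternative with adjusted p-values, and 2 at an unadjusted p under the methods' t-test (Aplnr, Mmrn2). For genotype after O3, 1 was called on the deposited scale (Mmrn2), 2 with array weights (Mmrn2, Sox7), 1 in the compared groups alone (Sox7), 1 with the replicate block (Mmrn2) and 6 under the unadjusted t-test, and 0 to 1 with each array left out in turn. For O3 in WT, the 2 calls became 0 on median-centred arrays, 0 without the trend in the spread, 0 under the adjusted t-test, 1 in the compared groups alone (Aplnr) and 1 without WT-Air replicate 3 and Nfkb1KO-Air replicate 1 (Nos3). They became 5 without WT-Air and Nfkb1KO-O3 replicates 2, chosen after seeing the data (Aplnr lower, Car4, Egfl7, Ramp2 and S1pr1 higher), and 0 to 3 with each array left out. For O3 in Nfkb1KO, the 6 calls became 0 on median-centred arrays, 3 without the trend (Aplnr, Kdr, Tie1), 2 without WT-Air replicate 3 and Nfkb1KO-Air replicate 1 (Aplnr, Kdr), 0 under the adjusted t-test and 1 to 7 with each array left out, the lowest without Nfkb1KO-O3 replicate 1 (Aplnr). The interaction had 3 under the unadjusted t-test (Sox7, Sox17, Sox18) and 0 elsewhere. Of 26 alternatives, the fall in Nfkb1KO was called in 24 for Aplnr, 23 for Kdr, 22 for Tie1, 20 for Sox18, 10 for Sox7 and 5 for Cdh5, and the fall in WT in 19 for Aplnr and 15 for Kdr, with no change of sign. The 26 include the t-test at an unadjusted p and the 12 omissions of a single array. They share most of their data, so they are not separate measurements. Signs reversed for Foxo1 in WT with the mean of its probe sets (0.125), and in Nfkb1KO on median-centred arrays for Cavin1 (0.007), Cavin2 (0.172) and Pdgfb (0.09), where the median of all genes was 0.25. The cause was not tested. Over all genes, the calls for the genotype comparisons (air, then O3), the O3 comparisons (WT, then Nfkb1KO) and the interaction were 60, 127, 949, 1086 and 6; they were 9, 78, 87, 308 and 10 on median-centred arrays, 13, 66, 435, 528 and 0 without the trend, and 59, 395, 1548, 1747 and 15 with array weights. The 18 pairs of same-numbered mice correlated at -0.166 to 0.107, and the replicate block left 2 calls for O3 in WT and 4 for O3 in Nfkb1KO.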
